A study of Mus musculus with 23 samples.

Results

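The genes described here build cholesterol and fatty acids. They were chosen by name as 31 members, 20 of the sterol branch and 11 of the fatty acid branch, out of 47643 genes listed in the deposited tables, and each symbol matched 1 Ensembl identifier. Cholesterol is made from acetyl-CoA through mevalonate and squalene, and fatty acids are made from acetyl-CoA through malonyl-CoA to palmitate, which is then elongated and desaturated. Both branches are under the control of the sterol regulatory element-binding proteins, membrane-bound transcription factors that are released by proteolysis when cell sterol is low. SREBP-2, encoded by Srebf2, acts mainly on sterol genes, whereas SREBP-1, encoded by Srebf1, acts mainly on fatty acid genes. In the mammary gland this machinery is known for supplying milk fat during lactation, and in tumor cells for supplying membrane lipids. The choice used gene names and no measured value.

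Transcripts of mammary tumors from PyMT mice were counted at their 3′ ends in 23 sequencing libraries, PyMT being a transgenic model in which the polyoma virus middle T oncoprotein drives tumors of the mammary epithelium in female C57BL/6 mice. In the first experiment PyMT WT mice received 100 µg of a human IgG1 isotype antibody (IgG1 control, 5 libraries) or of the IL-38-neutralizing antibody e04 (anti-IL-38, 6 libraries) intraperitoneally once a week for 5 weeks, starting when the first tumor measured 0.6 cm. In the second, treatment began at week 13 of age and again lasted 5 weeks with weekly doses of 500 µg at first and 200 µg later, and it covered PyMT WT mice given hamster IgG (WT + IgG, 4 libraries), PyMT IL-38 KO mice given the same IgG (KO + IgG, 4 libraries) and PyMT IL-38 KO mice given a γδTCR-blocking antibody (KO + anti-γδTCR, 4 libraries). IL-38 is a cytokine of the IL-1 family with receptor antagonist activity. All mice carried the PyMT transgene, the KO mice came from a knockout strain crossed with PyMT mice, and no WT group with γδTCR blockade was analyzed here. The RNA came from whole tumors, in which fewer cells of a type and less RNA per cell cannot be told apart.

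The libraries held 6273049 to 15879164 reads assigned to genes. The values are normalized read counts, and the first 4 groups were normalized together in one table and the KO groups with and without γδTCR blockade in another, so that each test stayed within its table. Il1f10, the gene that encodes IL-38, had 0 reads in every library, WT included, so the knockout could not be checked from these data. Luminal markers such as Epcam, Krt8 and Krt18 were high in every group, with a summed level over 8 markers of 1646 to 4138 CPM, the count scaled to a common total of reads. A set of 5 libraries stood apart from the other 18, namely the 4 of KO + anti-γδTCR and replicate 4 of KO + IgG. Processed pseudogenes took 1.31 to 1.98% of their reads against 0.0943 to 0.191% elsewhere, and their depths of 6273049 to 8794202 reads were below all others. The single gene Gm42418 took 11.3 to 20.1% of the reads in these 5 libraries against 2.62 to 5.70% elsewhere. Counts of members called by limma and branch medians that rest on KO + IgG are therefore given with and without its replicate 4. So are results of other lists where leaving it out changed a call or moved a median by over 1.5 times. Medians of pathway steps, overlaps of groups and most values of single members are given only with it. The labels do not say that the libraries of a group came from separate mice, so the p-values measure only the spread between these libraries.

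The promoter sequences of 6 members are shown. They were picked because groups did not overlap in a comparison described further on, or, for Hmgcs1, because its window held the sterol element searched for. RefSeq gave a window before the transcription start on build GRCm38.p6 for 24 of the 31 members. Each line holds the 200 bases before the start, 5′ to 3′ on the strand of the gene, and capitals mark a match on either strand to the motifs TCACNCCAC (a classical sterol regulatory element), CCAAT (a box bound by NF-Y), GGGCGG (a GC box bound by Sp1) or CACGTG (an E-box).
Hmgcs1: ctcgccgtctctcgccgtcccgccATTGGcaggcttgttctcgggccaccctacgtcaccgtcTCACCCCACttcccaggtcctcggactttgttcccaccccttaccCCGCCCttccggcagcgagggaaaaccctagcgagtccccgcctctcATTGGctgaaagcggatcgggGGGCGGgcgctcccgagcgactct
Pmvk: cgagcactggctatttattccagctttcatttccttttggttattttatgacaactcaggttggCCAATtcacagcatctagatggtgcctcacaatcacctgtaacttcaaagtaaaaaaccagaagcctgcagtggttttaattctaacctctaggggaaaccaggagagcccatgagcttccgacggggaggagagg
Dhcr7: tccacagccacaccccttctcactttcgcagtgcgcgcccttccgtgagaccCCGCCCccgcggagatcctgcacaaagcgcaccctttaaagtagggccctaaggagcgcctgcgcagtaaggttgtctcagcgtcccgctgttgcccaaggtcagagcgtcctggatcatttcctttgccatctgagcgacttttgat
Elovl6: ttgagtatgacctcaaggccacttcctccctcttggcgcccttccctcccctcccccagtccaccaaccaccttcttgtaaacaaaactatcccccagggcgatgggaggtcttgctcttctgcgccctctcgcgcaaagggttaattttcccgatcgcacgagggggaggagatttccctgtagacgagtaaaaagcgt
Elovl5: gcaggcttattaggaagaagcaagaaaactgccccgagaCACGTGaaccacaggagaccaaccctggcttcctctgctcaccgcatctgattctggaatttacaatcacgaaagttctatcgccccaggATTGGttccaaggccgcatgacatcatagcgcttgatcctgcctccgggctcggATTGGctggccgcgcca
Fads2: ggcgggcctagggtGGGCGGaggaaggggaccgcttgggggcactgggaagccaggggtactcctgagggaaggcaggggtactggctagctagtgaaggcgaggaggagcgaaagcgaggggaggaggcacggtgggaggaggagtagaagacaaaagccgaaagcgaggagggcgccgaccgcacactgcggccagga
Hmgcs1 lay at chr13:119690151-119690350 (+), Pmvk at chr3:89454341-89454540 (+), Dhcr7 at chr7:143822967-143823166 (+), Elovl6 at chr3:129532186-129532385 (+), Elovl5 at chr9:77917165-77917364 (+) and Fads2 at chr19:10101504-10101703 (-).

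Over 250 bases before the start, the sterol element was present in 1 of the 24 members, Hmgcs1, where it began 137 bases before the start, and in 1.05% of all 32851 RefSeq windows of the same length. The CCAAT box was present in 18 of 24 members (75%) and in 33.8% of all windows. The GC box was likewise present in 18 of 24 members (75%), against 32.7% of all windows. The E-box was found in 4 members, Elovl5, Hsd17b7, Insig1 and Sc5d (16.7%), against 6.02% of all windows. The printed windows of Pmvk and Dhcr7 held a CCAAT box and a GC box respectively, and that of Elovl6 held none of these motifs in the letters shown. A match in the letters is a description and does not show that a factor bound there.

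The members spanned a wide range of read counts. Median levels over the 23 libraries ran from 0.713 CPM for Idi1, an isomerase of the mevalonate pathway, to 539 CPM for Scd1, the stearoyl-CoA desaturase that introduces the cis bond of oleate. All 31 members passed the filter of a mean of at least 5 normalized counts in every comparison, but Idi1 rested on 2 to 18 reads and Fads2 on 7 to 93 reads per library, and their values are the least precise. Between libraries, the coefficient of variation of CPM ran from 19.3% for Hmgcs1, which makes HMG-CoA, to 56.0% for Fads2, a desaturase of the polyunsaturated fatty acid pathway. Srebf1, Scd1 and Insig1 also varied strongly, at 49.7%, 48.7% and 48.5%. Because counts were taken at transcript 3′ ends, these levels describe each gene by itself and are not compared between genes as amounts of transcript. Reads of Acat2 and of Scd1 and Scd2 could have been split with related family members.

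To ask whether tumors without IL-38 differed in these genes, KO + IgG was compared with WT + IgG. The fatty acid branch had higher values in KO tumors among the genes of elongation and desaturation. All 6 genes of elongation and desaturation had positive log2 fold changes, with a median of 0.60, while the 4 genes from acetyl-CoA to palmitate had a median of -0.09. The sterol branch divided at squalene. Of the 8 genes up to squalene, 1 had a positive change and their median was -0.24, whereas of the 9 genes from squalene to cholesterol, 7 had a positive change and their median was 0.40. The steps were split into these parts after the values were known. The median over all 20 sterol genes was 0.02 and over the 11 fatty acid genes 0.25, against 0.01 over all genes tested.

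Single differences did not pass the test across all genes. By limma, 0 of 31 members had an adjusted p under 0.05, where 0.00604% of all genes tested did (1 of 16563). At an unadjusted p under 0.05 there were 10 members, against a background of 12.1%, of which 9 were higher in KO tumors, against a background of 6.73% in that direction. They were Sqle, Srebf2, Hsd17b7, Sc5d and Dhcr7 of the sterol branch and Srebf1, Scd2, Elovl5 and Elovl6 of the fatty acid branch, and Pmvk was the 1 lower member. DESeq2 on the recovered reads called 4 members, all of them fatty acid genes and higher (Srebf1, adjusted p = 0.0486, Scd2, 0.0200, Elovl5, 0.0213, and Elovl6, 0.0242), against backgrounds of 1.8% of genes in either direction and 1.31% higher. edgeR called 0 members. The values of the KO and WT libraries did not overlap for 3 of 31 members, Pmvk, Elovl5 and Elovl6. The same was true of 7.06% of all genes tested, a share near that of the members.

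**Figure D1:**
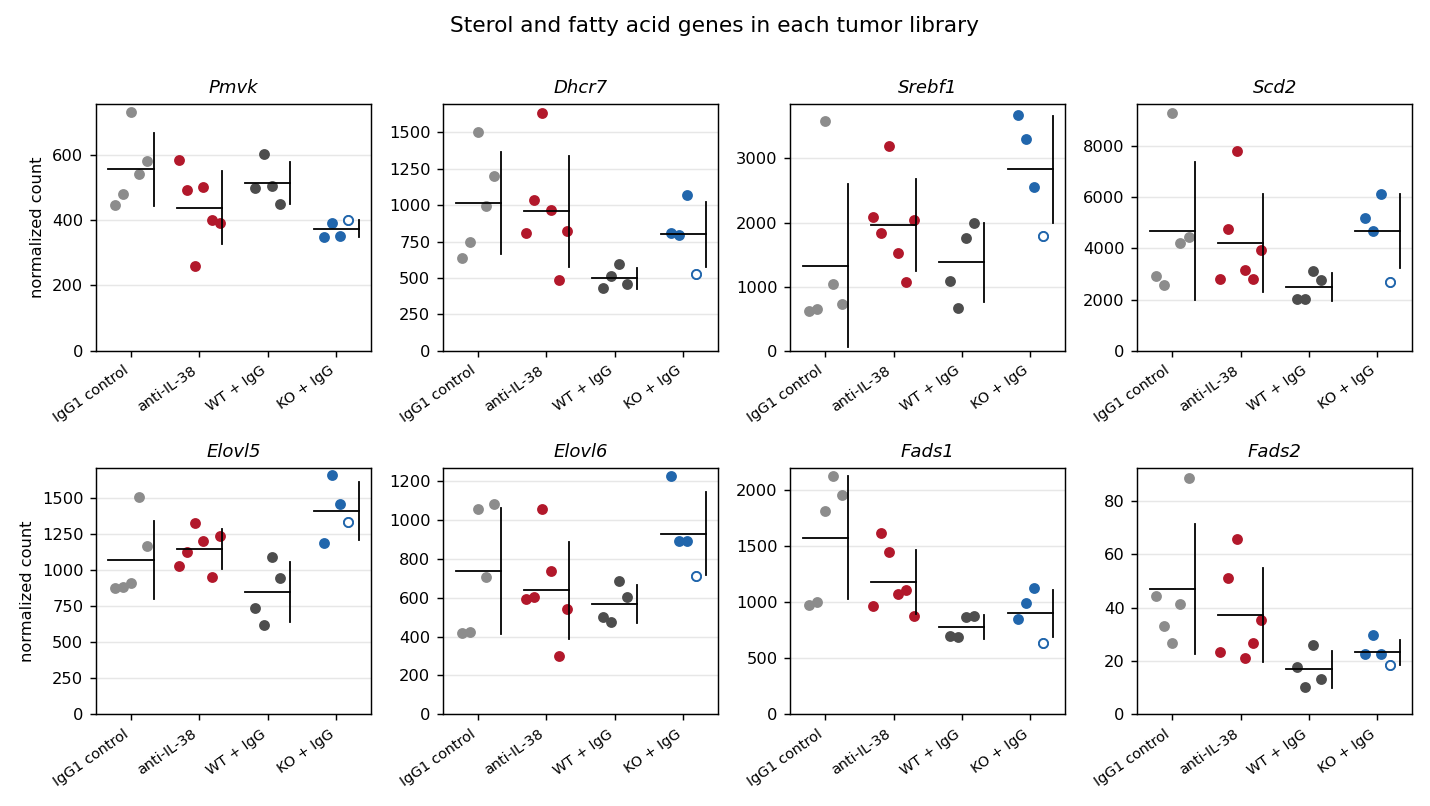
Normalized read counts of 8 members (vertical axes, each starting at 0) in the 19 libraries normalized together, by group. Each point is a library, the horizontal line is the group mean and the vertical line ± 1 SD, and the open circle is KO + IgG replicate 4. Elovl5 and Elovl6 lay higher and Pmvk lower in all 4 KO + IgG libraries than in any WT + IgG library, and Dhcr7, Fads1 and Fads2 lay lower in WT + IgG than in the IgG1 control.

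Elovl5 (ENSMUSG00000032349, chr9:77917364-77984519 on GRCm38) encodes an elongase of polyunsaturated fatty acids. Its normalized counts in KO + IgG replicates 1 to 4 were 1190.0, 1660.1, 1456 and 1334, and in WT + IgG replicates 1 to 4 they were 736, 623, 1089 and 947. Every KO library was above every WT library, and the difference in log2 counts was 0.75 (95% interval 0.35 to 1.16, n = 4 and 4, adjusted p = 0.21 by limma). The exact permutation test gave p = 0.0286, unadjusted and the smallest that 70 groupings of 4 against 4 libraries allow.

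Elovl6 (ENSMUSG00000041220, chr3:129532355-129638495) encodes the elongase that extends palmitate to stearate. It was counted at 1224, 894, 891 and 711 in the KO libraries and at 503, 476, 686 and 605 in the WT libraries. Again the groups did not overlap, although the lowest KO library, replicate 4, came within 25 counts of the highest WT library. The log2 difference was 0.70 (95% interval 0.29 to 1.11, adjusted p = 0.231 by limma).

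Pmvk (ENSMUSG00000027952, chr3:89454541-89469013) encodes phosphomevalonate kinase of the mevalonate pathway. It had 349.9, 392, 353 and 402 counts in the KO libraries and 498, 602, 506 and 450.4 in the WT libraries. All 4 KO libraries were below the lowest WT library, with a log2 difference of -0.45 (95% interval -0.76 to -0.15, adjusted p = 0.276 by limma).

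Srebf1 (ENSMUSG00000020538, chr11:60199089-60222581) showed a larger difference with more spread. Its counts were 3669, 3308, 2546 and 1795 in the KO libraries and 1084, 663, 1766 and 1994 in the WT libraries. The ranges overlapped through KO + IgG replicate 4, which lay below the highest WT library. From the means of log2 counts, the level in KO tumors was 2.16-fold that in WT tumors (95% interval 1.30 to 3.58, adjusted p = 0.27 by limma).

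Scd2, the second stearoyl-CoA desaturase, had 5205, 4677, 6122 and 2691 counts in the KO libraries and 2016, 2023, 3114 and 2774 in the WT libraries, and replicate 4 was again the KO library inside the WT range. The log2 difference was 0.88 (95% interval 0.33 to 1.42, adjusted p = 0.255 by limma). Dhcr7, whose enzyme reduces 7-dehydrocholesterol to cholesterol, followed the same pattern, with 806, 794, 1072 and 525 against 433, 515, 594 and 455 (log2 difference 0.64, adjusted p = 0.287 by limma). For Srebf2 the log2 difference was 0.74, and for Sqle, whose enzyme oxidizes squalene, it was 0.62, with adjusted p = 0.31 and 0.315 by limma. By contrast, Fasn, the fatty acid synthase, and Acly, which makes cytosolic acetyl-CoA from citrate, had log2 differences of -0.21 and -0.07, and Scd1 of 0.12.

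The remaining members are given by step. Up to squalene, the log2 differences were -0.22 for Hmgcs1, -0.27 for Mvk, -0.38 for Mvd, -0.34 for Acat2, which forms acetoacetyl-CoA, -0.09 for Fdps, which makes farnesyl diphosphate, -0.02 for Fdft1, the squalene synthase, and 0.01 for Idi1. After squalene they were 0.55 for Sc5d, a sterol desaturase, 0.52 for Hsd17b7, 0.40 for Cyp51 and 0.32 for Msmo1, and they were 0.02 for Lss, -0.02 for Ebp and -0.08 for Nsdhl, which acts with Msmo1 in removing sterol methyl groups. The genes of sterol control and transport were at 0.61 for Insig1, which holds SREBPs in the endoplasmic reticulum, and 0.13 for Stard4, a carrier of sterol between membranes. In the fatty acid branch, Fads2 was at 0.50, Fads1 at 0.18, Acss2, which makes acetyl-CoA from acetate, at 0.25 and Acaca at -0.11. limma gave none of these an adjusted p under 0.05.

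**Figure D2:**
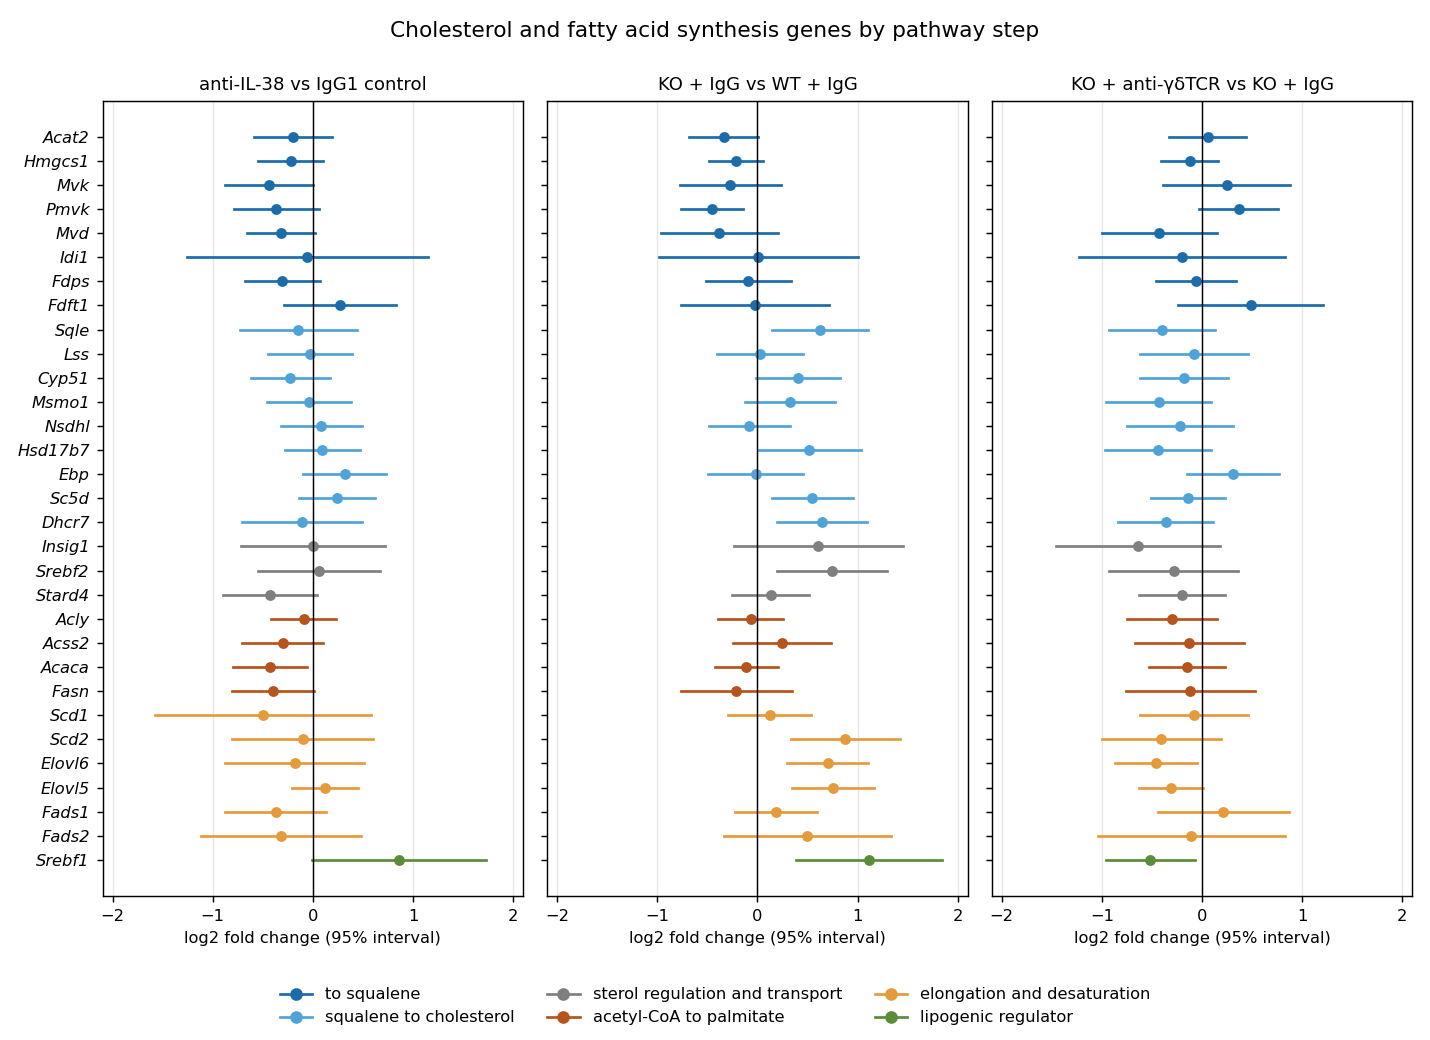
log2 fold changes (points) with 95% intervals from limma (lines) for the 31 members in 3 comparisons, ordered and colored by pathway step. In the middle panel the genes after squalene and of elongation and desaturation sit mostly to the right of 0, and those before squalene to the left.

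Replicate 4 of KO + IgG lowered these differences. The 6 elongation and desaturation genes had a mean log2 difference from their overall means of 0.27, 0.27 and 0.27 in KO + IgG replicates 1 to 3 and of -0.19 in replicate 4. The 9 genes after squalene behaved alike, with 0.25, 0.27 and 0.22 against -0.23. Without replicate 4 the median log2 difference was 0.08 over the sterol genes and 0.34 over the fatty acid genes. Without that library, limma still called 0 members for KO against WT (background 0.0431% of 16225 genes), while 15 members had an unadjusted p under 0.05 (background 14%), 13 of them higher (background 8.6%). DESeq2 then called 9 members higher, against backgrounds of 2.98% in either direction and 2.29% higher. They were Sqle, Srebf2, Hsd17b7, Sc5d and Dhcr7 and the same 4 fatty acid genes, with Scd2 at a log2 difference of 1.11 (adjusted p = 8.8e-06 by DESeq2) and Dhcr7 at 0.84 (adjusted p = 0.00115 by DESeq2).

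**Figure D3:**
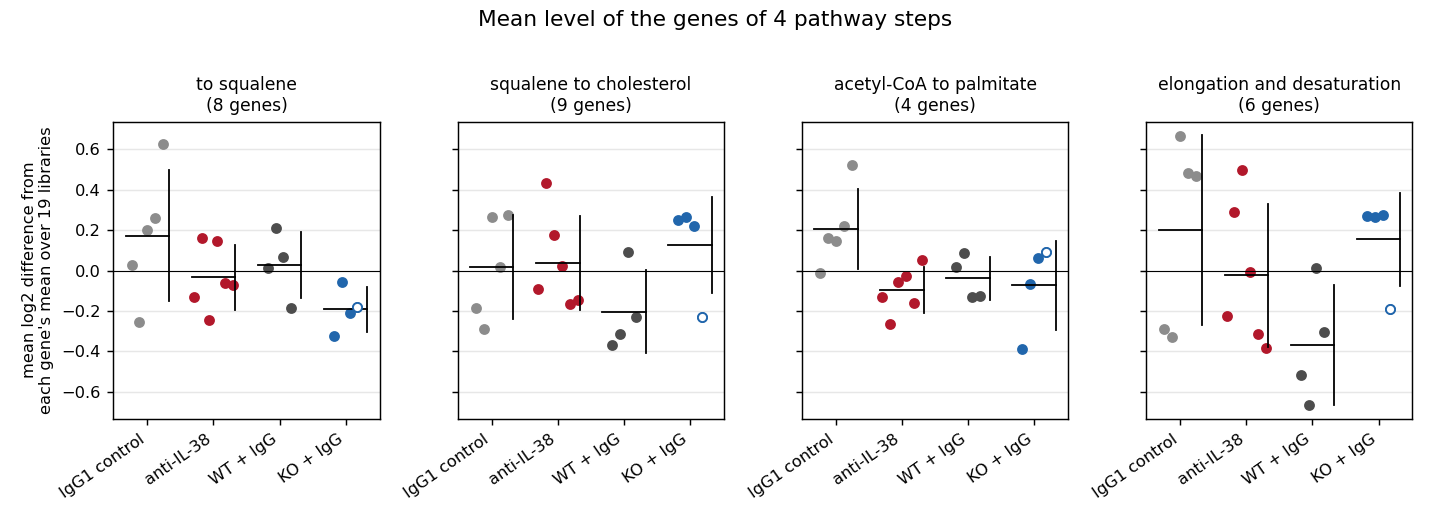
Mean log2 difference of the genes of 4 pathway steps from each gene's own mean over the 19 libraries (vertical axis), by group. Points are libraries, horizontal lines group means, vertical lines ± 1 SD, and the open circle is KO + IgG replicate 4. KO + IgG sits at -0.19 ± 0.11 (SD, n = 4) for the genes up to squalene and at 0.15 ± 0.23 for elongation and desaturation, where WT + IgG sits at 0.03 ± 0.16 and -0.37 ± 0.30.

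Other genes of the same pathways, from lists that were chosen with earlier results of these data known, differed in part as the members did. All 12 further genes of sterol synthesis and SREBP control had positive changes in KO tumors, with a median log2 difference of 0.40 and 5 at an unadjusted p under 0.05, all higher, where 6.73% of all genes were. Tmem97, a sterol-responsive membrane protein, was at 0.62 (adjusted p = 0.245 by limma). Among 15 tested genes of lipogenesis outside the members, 9 had positive changes and the median was 0.07, with Acsl3, an acyl-CoA synthetase, at 0.69 (adjusted p = 0.21 by limma) and Me1, the malic enzyme that provides NADPH, at -0.58. The 11 genes of sterol export, storage and LXR response had a median of -0.11, 10 genes of triglyceride synthesis and lipid droplets of -0.19 and 10 genes of mitochondrial fatty acid oxidation of -0.11. Without KO + IgG replicate 4 these medians were 0.50 for the further sterol genes, -0.03 for other lipogenesis, -0.0034 for sterol export, -0.05 for triglyceride synthesis and -0.21 for fatty acid oxidation. limma called none of these genes at an adjusted p under 0.05, with or without that library.

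The cell type markers differed between the same libraries. All 12 adipocyte markers had lower values in KO + IgG, with a median log2 difference of -1.09 and a summed level of 86.0 to 328 CPM against 376 to 515 CPM in WT + IgG. The 7 milk protein genes had a median of 1.11 (7497 to 16404 CPM against 8533 to 10887 CPM) and the 7 macrophage markers a median of -0.47 (853 to 2095 CPM against 1930 to 2514 CPM). Medians were 1.93 for 6 skeletal muscle markers, -0.82 for 7 T cell markers, -0.36 for 6 basal, 0.28 for 5 endothelial, 0.21 for 8 luminal, 0.12 for 7 cell cycle and 0.10 for 6 fibroblast markers. The T cell markers were low, at a summed 5.15 to 14.8 CPM against 9.20 to 20.1 CPM in WT + IgG. By DESeq2 the T cell median was -0.44. Without KO + IgG replicate 4, at 853 CPM the library with the lowest macrophage sum of its group, the medians were -0.23 for macrophage, 0.52 for milk protein (5 of 7 positive), 2.99 for skeletal muscle, -1.43 for adipocyte (11 of 12 negative), 0.07 for cell cycle and 0.04 for fibroblast markers. No marker in these lists was at 0 in every library. The part of these markers in the member values was not tested.

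Antibody neutralization of IL-38 was compared with its isotype control in the first experiment. Here the genes of early fatty acid synthesis had lower values. All 4 genes from acetyl-CoA to palmitate had negative log2 differences, with a median of -0.35, and 9 of 11 fatty acid genes were negative, with a branch median of -0.30 against 0.00 over all genes tested. The 20 sterol genes had a median of -0.08, with 1 of the 8 genes up to squalene positive. Srebf1 went the other way at 0.86. Single libraries carried much of these medians. Without IgG1 control replicate 5, whose 4 genes from acetyl-CoA to palmitate averaged 0.52 above their overall means on the log2 scale, the fatty acid median was -0.08 and the sterol median 0.04. Without IgG1 control replicate 3 the fatty acid median was -0.11, and without anti-IL-38 replicate 6 it was -0.17.

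limma called 0 of 31 members and 0.0% of the 16002 genes tested at an adjusted p under 0.05, and edgeR and DESeq2 likewise called 0 members, where DESeq2 called 0.469% of all genes. At an unadjusted p under 0.05 there were 2 members, Mvk and Acaca, against a background of 10.5%. The groups did not overlap for 0 members, against 1.04% of all genes.

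Acaca (ENSMUSG00000020532, chr11:84129672-84401651) encodes acetyl-CoA carboxylase, the committed step of fatty acid synthesis. Its counts in the 6 anti-IL-38 libraries ran from 245 over a median of 359 to 429, and in the IgG1 control libraries they were 370.1, 417, 620.1, 484 and 527. Of the 6 treated libraries, 4 were below the lowest control. From the means of log2 counts, the level was 0.743-fold that of the control (95% interval 0.575 to 0.961, adjusted p = 0.432 by limma, exact permutation p = 0.0411, unadjusted).

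Mvk, the mevalonate kinase, ran from 82.2 over 98.5 to 140.2 in the anti-IL-38 libraries and was at 107, 119, 182, 121 and 184 in the controls. The ranges overlapped, and the log2 difference was -0.44 (adjusted p = 0.473 by limma). Fasn ran from 1876 over 2624 to 3210.4 after neutralization and was at 2459, 4306, 2467, 3929 and 4493 in the controls, with a log2 difference of -0.40 (adjusted p = 0.481 by limma).

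Srebf1 ran from 1078 over 1934 to 3197 in the anti-IL-38 libraries, and the controls were at 626, 649, 3581, 1047 and 734. All 6 treated libraries were above 4 of the 5 controls, and IgG1 control replicate 3 was above all of them. The log2 difference of 0.86 (95% interval -0.00 to 1.72) had an adjusted p of 0.477 by limma, and the exact permutation test gave p = 0.113. Replicate 3 was also the highest control for Scd1 and Scd2, at 17450.2 and 9275 counts.

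Outside the members, 7 of the 12 further genes of sterol synthesis and SREBP control had positive changes on neutralization, with a median of 0.05. The medians were -0.13 for sterol export, storage and LXR response, 0.03 for other lipogenesis, 0.24 for triglyceride synthesis and lipid droplets and 0.14 for mitochondrial fatty acid oxidation, and limma called none of these genes.

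In the anti-IL-38 comparison the 7 cell cycle markers had lower values (median -0.40, 474 to 662 CPM against 574 to 1507 CPM, the upper end being IgG1 control replicate 5 alone and the other 4 controls lying at 574 to 744 CPM) and the 8 luminal markers higher ones (median 0.66, 2371 to 4138 CPM against 1646 to 3343 CPM). Medians were 0.86 for T cell, 0.55 for fibroblast, 0.43 for basal, 0.36 for skeletal muscle, 0.29 for adipocyte, 0.21 for endothelial, -0.20 for macrophage and -0.40 for milk protein markers. The T cell markers summed to only 4.44 to 13.6 CPM against 1.49 to 13.2 CPM, and by DESeq2 their median was 0.31. The part of all these markers in the member values was not tested.

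The effect of the antibody and that of the knockout were set against each other by the interaction term over 19 libraries. All 11 fatty acid genes had a negative term, meaning a lower change on neutralization than on knockout, with a branch median of -0.56, and the 6 genes of elongation and desaturation had a median of -0.72. The sterol median was -0.19, and the median over all genes was 0.02. limma called 0 members at an adjusted p under 0.05 (background 0.00612%), and 2 had an unadjusted p under 0.05 (background 7.67%), namely Elovl5 at -0.63 (adjusted p = 0.59) and Cyp51, the sterol demethylase, at -0.63 (adjusted p = 0.62). The same terms for Scd2 and Elovl6 were -0.98 (95% interval -1.96 to 0.00) and -0.88 (-1.78 to 0.02), so that a difference between both modes of IL-38 inhibition was not established for any of these genes. Without KO + IgG replicate 4, limma again called 0 members (background 0.0124%), while 8 members, 4 of each branch, had a negative term at an unadjusted p under 0.05 (background 7.72%), and the medians were -0.65 for the fatty acid and -0.27 for the sterol branch.

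When the anti-IL-38 and KO + IgG libraries were pooled and compared with both control groups, as the study did, limma called 0 members and 0.0% of all genes, and DESeq2 0 members and 0.428% of genes. There were 7 members at an unadjusted p under 0.05, against a background of 10.5%. Srebf1, Sc5d and Elovl5 had higher values, with log2 differences of 0.95, 0.36 and 0.39 and adjusted p of 0.309, 0.391 and 0.348 by limma. Acaca, Pmvk, Mvk and Hmgcs1 had lower values, from -0.22 for Hmgcs1 to -0.40 for Pmvk. Without KO + IgG replicate 4, limma called 0 members (background 0.0%) and 7 again had an unadjusted p under 0.05 (background 10.2%), with Fasn in place of Mvk. These libraries are those of the separate comparisons, so the pooled values are no further evidence for them.

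Blockade of the γδTCR in IL-38 KO tumors was compared with KO + IgG in the second table. Most members had lower values, with 5 of 20 sterol genes and 1 of 11 fatty acid genes positive and medians of -0.19 and -0.15, against 0.02 over all genes. Without KO + IgG replicate 4 the sterol median was -0.22 and the fatty acid median -0.20. The fatty acid median was -0.33 without KO + IgG replicate 1 and -0.38 without KO + anti-γδTCR replicate 3. The latter library had the lowest depth, and its deposited column name alone carries the mark rep, whose meaning is not given. limma called 0 members and 0.0% of genes, and edgeR and DESeq2 called 0 members, while DESeq2 called 6.21% of all genes. Srebf1 and Elovl6 had an unadjusted p under 0.05, 2 members against a background of 21.7%. The groups overlapped for every member, where they did not for 9.54% of all genes. All 4 blocked libraries were rich in pseudogene reads, and among the KO + IgG libraries only replicate 4 was. With that library kept, the split by pseudogene reads therefore still largely follows blockade, and the 2 cannot be told apart. The blockade comparison shares the KO + IgG libraries with that of KO against WT, so that a high KO + IgG value lowers the former and raises the latter.

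Srebf1 had 2754, 2508, 1967 and 1406 counts in KO + IgG replicates 1 to 4 and 1389, 1433, 1442 and 1591 after blockade. The first 3 KO libraries were above all blocked libraries and replicate 4 was among them. The log2 difference was -0.52 (95% interval -0.96 to -0.07, adjusted p = 0.162 by limma, exact permutation p = 0.114). Elovl6 had 919, 678, 688 and 557 against 596, 441, 577 and 435 counts, with replicate 4 again inside the blocked range (log2 difference -0.46, adjusted p = 0.172 by limma).

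**Figure D4:**
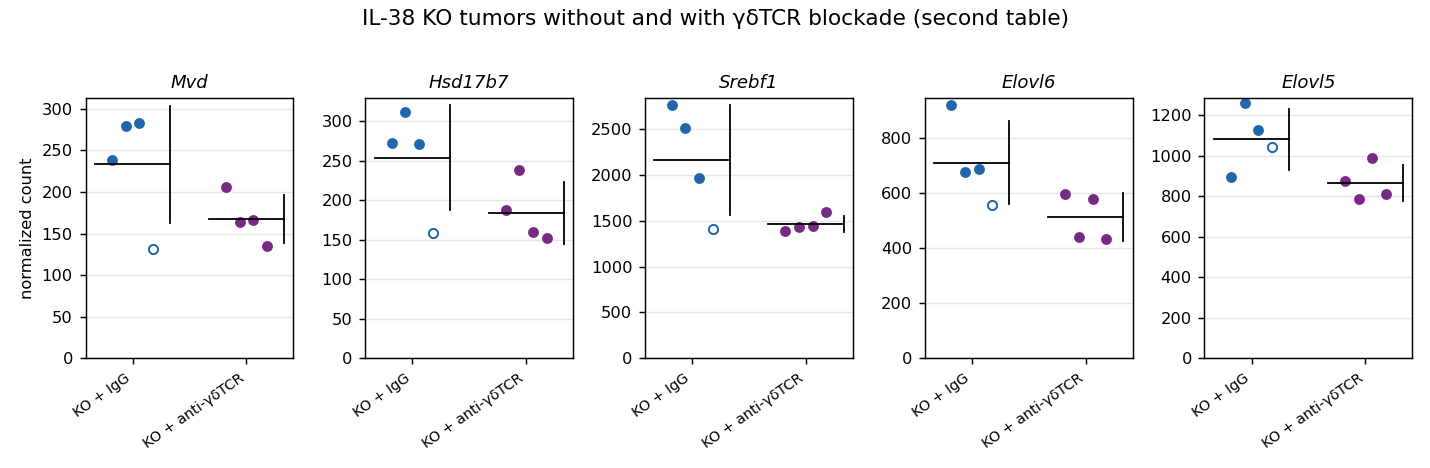
Normalized read counts of 5 members in IL-38 KO tumors with control IgG or γδTCR blockade (vertical axes start at 0). Points are libraries, horizontal lines means and vertical lines ± 1 SD (n = 4), and the open circle, KO + IgG replicate 4, lies inside the range of the blocked libraries for Hsd17b7, Srebf1 and Elovl6 and, at 131 counts, below it for Mvd.

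Without KO + IgG replicate 4, limma called 3 members, all lower after blockade, against a background of 14.3% of 16480 genes in either direction and 4.85% lower. Srebf1 was at -0.71 (adjusted p = 0.00787), Mvd, the mevalonate decarboxylase, at -0.68 (adjusted p = 0.0347) and Hsd17b7, a reductase of sterol synthesis, at -0.65 (adjusted p = 0.0497). For Mvd the remaining KO libraries had 239, 279 and 283 counts against 205, 164, 166 and 135, and for Hsd17b7 they had 272, 312 and 271 against 187, 238, 159 and 152. At an unadjusted p under 0.05 there were 10 members (background 26.2%), 9 of them lower (background 11%), and DESeq2 called 5 members, against 17.4% of genes. With that library left out, the split into libraries rich and poor in pseudogene reads is the same as the split between blocked and control tumors, so the 2 cannot be told apart.

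The other lipid genes and the cell type markers differed in this comparison as well. With all libraries limma called none of them, while DESeq2 called 3 genes of sterol export and LXR response, 1 triglyceride gene, 4 macrophage markers and 1 cell cycle marker lower and 1 luminal marker higher. Without KO + IgG replicate 4, limma called 4 genes of sterol export and LXR response, 1 further sterol gene, 4 macrophage markers and 1 cell cycle marker lower, 2 genes of other lipogenesis and 1 luminal marker higher, and 1 triglyceride gene in each direction. Of the 12 further genes of sterol synthesis and SREBP control, 11 were lower, with a median of -0.16. Of the 11 genes of sterol export, storage and LXR response, 9 were lower, with Abca1 and Abcg1, which export cholesterol, at -0.41 and -0.93 (adjusted p = 0.0814 and 0.125 by limma). The list summed to 712 to 856 CPM after blockade and to 1530 to 1910 CPM in KO + IgG replicates 1 to 3. KO + IgG replicate 4, unblocked but also rich in pseudogene reads, lay inside the blocked range at 751 CPM. Plin2, which coats lipid droplets, was at -0.61 (adjusted p = 0.0686 by limma). The medians of the other lipogenesis, triglyceride and fatty acid oxidation lists were 0.03, 0.10 and -0.04, and without KO + IgG replicate 4 they were 0.02, 0.09 and 0.02. All 7 cell cycle markers were lower (median -0.76, 277 to 437 CPM against 495 to 712 CPM), and 6 of 7 macrophage markers were lower (median -0.96, 655 to 1064 CPM against 853 to 2095 CPM). All 8 luminal, 6 basal and 7 T cell markers were higher, with medians of 0.24, 0.62 and 0.52, and the fibroblast median was 0.20. The T cell markers were low, at a summed 7.33 to 13.2 CPM against 5.15 to 14.8 CPM. The milk protein median was -1.0 and the skeletal muscle median 1.46, and without KO + IgG replicate 4 they were -0.41 and 0.46, with the further sterol genes at -0.28 and the macrophage markers at -1.25. The adipocyte and endothelial medians were -0.08 and 0.11, and without that library they were 0.13 and 0.03. The part of these lists and markers in the member values was not tested.

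The control groups of the 2 experiments also differed in these genes. WT + IgG had lower values than the IgG1 control for 15 of 20 sterol genes and 8 of 11 fatty acid genes, with medians of -0.27 and -0.33 against 0.02 over all genes. limma called 0 members (background 0.0994%), and 10 members had an unadjusted p under 0.05 (background 18.6%), all of them lower (background 9.11%). DESeq2 called Dhcr7, Fads1 and Fads2 lower (adjusted p = 0.00398, 0.00545 and 0.0341), against backgrounds of 4.61% in either direction and 2.43% lower. The same 3 of 31 members were those whose groups did not overlap. This share was near the 7.02% of all genes without overlap in either direction, and 3.45% of all genes did so with lower values. The controls differed in antibody, in the rule that set the start of treatment and in the experiment, which cannot be told apart.

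Dhcr7 (ENSMUSG00000058454, chr7:143823145-143848410) had 433, 515, 594 and 455 counts in WT + IgG and 634, 745, 1500.3, 993 and 1203 in the IgG1 control. All WT + IgG libraries were below all IgG1 control libraries, at 0.513-fold (95% interval 0.364 to 0.723, adjusted p = 0.104 by limma). Fads1 (ENSMUSG00000010663, chr19:10182888-10196877), the desaturase that forms arachidonate, had 696, 686, 871 and 880.4 against 976, 1003, 1817, 2129 and 1958 counts, also without overlap, and a log2 difference of -0.94 (adjusted p = 0.117 by limma). Fads2 (ENSMUSG00000024665, chr19:10062765-10101746) had 17.9, 10.4, 26.0 and 13.2 against 44.4, 33.1, 26.7, 41.5 and 88.6 counts, the groups being separated by less than 1 count, with a log2 difference of -1.37 (adjusted p = 0.138 by limma). KO + IgG was compared with WT + IgG above, and the part of these control levels in the knockout differences was not tested. Dhcr7 in KO + IgG, at 525 to 1072 counts, lay within or below the IgG1 control range of 634 to 1500.3, and Fads1, at 639 to 1127, likewise. Both genes are shown because they differed between the controls.

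Of the 12 further genes of sterol synthesis and SREBP control, 7 were lower in WT + IgG, with a median of -0.12 and Tmem97 at -0.83 (adjusted p = 0.188 by limma). The medians of the other lists were -0.22 for sterol export, storage and LXR response, 0.22 for other lipogenesis, -0.03 for triglyceride synthesis and 0.00 for fatty acid oxidation, with no gene called by limma.

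Adipocyte markers also differed between these controls, with 12 of 12 higher in WT + IgG, 5 called by limma and a median log2 difference of 2.93 (376 to 515 CPM against 66.4 to 121 CPM). Fabp4 was at 1.74 (adjusted p = 0.0192 by limma). These calls were lost without WT + IgG replicate 1, 2 or 4, when limma called 0 genes. The 7 macrophage markers had a median of -0.37 and the 6 tested T cell markers of 1.49 (1.09 by DESeq2). All 7 T cell markers summed to 9.20 to 20.1 CPM in WT + IgG against 1.49 to 13.2 CPM. The basal and fibroblast markers had medians of 0.91 each and the cell cycle markers of -0.43. The part of all these markers in the member values was not tested.

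Between tumors of the same group, members of a step varied together to different degrees. After the group means were removed, the median Pearson r over pairs of genes across 19 libraries was 0.28 within the sterol branch, 0.20 within the fatty acid branch and 0.18 between them, against -0.0019 over pairs of all 16352 genes. Within steps it was 0.62 for the 3 genes of sterol regulation and transport (Insig1, Srebf2 and Stard4), 0.45 for elongation and desaturation, 0.40 from squalene to cholesterol, 0.27 up to squalene and 0.13 from acetyl-CoA to palmitate. The closest pairs crossed the branches, with r = 0.89 for Sqle and Fads1, 0.88 for Dhcr7 and Elovl6 and 0.87 for Dhcr7 and Scd2. The most opposed pair was Acly and Scd1 at -0.62. These values share libraries, depth and cell makeup and are given as a description.

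**Figure D5:**
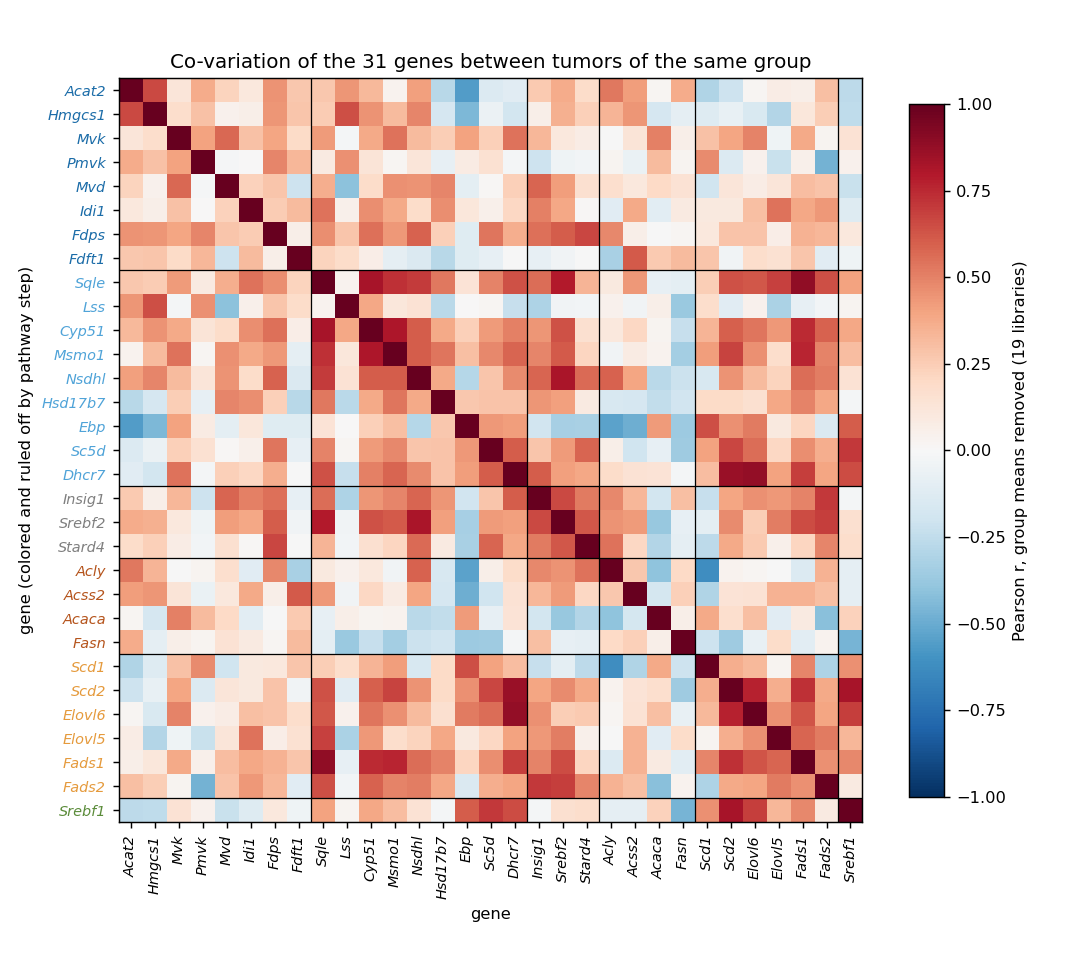
Pearson r between each pair of the 31 genes over 19 libraries after removal of the group means (color scale from -1 to 1), ordered and ruled off by pathway step. The 3 genes of sterol regulation and transport form the block with the highest median r, 0.62, followed by elongation and desaturation at 0.45 and squalene to cholesterol at 0.40.

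Against the mean of the sterol branch, Sqle had r = 0.89, Cyp51 0.81, Msmo1, a sterol methyl oxidase, 0.79, and Srebf2 0.77, whereas Ebp, the sterol isomerase, had 0.09 and Lss, the lanosterol synthase, 0.12. Against the fatty acid mean, Scd2 and Elovl6 had 0.88 and Fads1 0.86, whereas Fasn had -0.07 and Acly -0.03. Genes outside the list reached similar values. The 10 most alike to the sterol mean had r of 0.82 to 0.92, among them Plxnb2, Gja1, Il17rc, Reep4, Fkbp9, Sys1 and Lpcat3 at 0.82 to 0.86, and the 5 most alike to the fatty acid mean were Tmem120b, Tm9sf4, Tm7sf3, Slc7a1 and Tspan31 at 0.89 to 0.93.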

How the data were processed

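RNA of PyMT tumors was prepared with a QuantSeq 3′ mRNA kit from 500 ng and sequenced for 75 cycles, and per the study's methods the reads went through the BlueBee Genomics pipeline. The submitters' processing notes name STAR, HTSeq, DESeq2 and the build GRCm39. The deposited values are a signal, namely read counts that the authors divided by a size factor per library, in 2 tables normalized separately (19 and 8 libraries, the 4 KO + IgG libraries in both). Dividing by the value of 1 read recovered whole reads for 100% of values within 0.0001%. For WT + IgG replicate 1 the step could not be told from rounding. Depth was 6273049 to 15879164 reads, and 3 reads equal 0.189 to 0.478 CPM, counting error only.

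Ensembl identifiers were matched to symbols (47224 of 47643) and coordinates from GRCm38 (GENCODE M21). Genes with a mean of at least 5 normalized counts entered limma 3.58.1 on log2(normalized count + 1), two-sided, with Benjamini-Hochberg adjustment over all genes tested, and only libraries of the comparison in the fit. On this scale fold changes of low genes can be understated, but they can also be larger in size than by DESeq2. The T cell marker median for anti-IL-38 was 0.86 by limma and 0.31 by DESeq2. It was -0.82 and -0.44 for KO against WT, and 1.49 and 1.09 for the controls. edgeR 4.0.16 and DESeq2 1.42.0 (R 4.3.3) on recovered reads, pseudocounts of 0.5 and 5, other filters, TMM rescaling, a replicate block, a term for the experiment, and fits that each lacked 1 library were alternatives. Single genes were also tested by a two-sided exact permutation test (scipy 1.17.1). The limma, edgeR and DESeq2 fits of the comparisons between groups were tested on simulated counts, and the interaction fit was not.

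The members, the other lists and the alternatives without KO + IgG replicate 4 under edgeR and DESeq2 were chosen with earlier results of these data known. All 31 members are named, up to 3 genes per other list, and for likeness genes by Pearson r with the branch mean. Per-library values are given for members whose groups do not overlap or whose p was smallest. No 2 libraries of the same group were duplicates (chi-square per degree of freedom 17.1 to 138 over 43 pairs). Pairs of libraries from different groups were not checked.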

Additional observations from a re-analysis of the deposited data

Results flagged for a closer look

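Of 155 sets of a member in a group, 5 held a library far from the others by Dixon's ratio of gap to range at the 95% level, and chance alone marks about 1 in 20 sets. Acat2, the cytosolic thiolase, stood at 744 normalized counts in IgG1 control replicate 5, where the nearest library had 417. Acaca stood at 551 in KO + IgG replicate 1, with the nearest at 437. Scd1 was lowest in anti-IL-38 replicate 6, at 1173 against 3664 in the nearest library, and highest in KO + IgG replicate 1, at 9855 against 7189.6. Lss was lowest in KO + anti-γδTCR replicate 4, at 74.8 against 119. KO + IgG replicate 1 held 2 of the 5, and KO + IgG replicate 4, the library with the high share of pseudogene reads, held none of them.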

How the results depend on the processing

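No member changed direction past a threshold under any alternative run. Of the values of single members under an alternative, 3840 stayed on the same side of the threshold and 28 passed it only under DESeq2 or without KO + IgG replicate 4, and the cause was not tested. In anti-IL-38 against IgG1 control, genes called numbered 0, with DESeq2 75 and with the replicate block 1. In KO + IgG against WT + IgG they numbered 1, with edgeR 0, with DESeq2 298 and with the replicate block 0, and without KO + IgG replicate 4 they were 10 by edgeR and 483 by DESeq2. Fatty acid members called there were 4 by DESeq2 with or without that library, and sterol members 5 by DESeq2 without it. In KO + anti-γδTCR against KO + IgG, DESeq2 called 1024 genes, and without replicate 4 edgeR called 2379 and DESeq2 2875, with 2 sterol and 2 fatty acid members by edgeR and 3 and 2 by DESeq2. For IL-38 inhibited against control, edgeR and the experiment as a term each called 1 gene, and DESeq2 called 70 and, without replicate 4, 80. For WT + IgG against IgG1 control, genes called were 16, with a pseudocount of 0.5 they were 7, with DESeq2 742 and with the replicate block 39, and DESeq2 called 1 sterol and 2 fatty acid members.

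Leaving out each library in turn gave 0 to 6 genes called for anti-IL-38 (most without IgG1 control replicate 3), 0 to 7 for KO against WT and 0 to 2357 for γδTCR blockade (most without KO + IgG replicate 4), 0 to 23 for the pooled comparison (most without IgG1 control replicate 3), 0 to 45 for the controls (most without IgG1 control replicate 1, and 0 without WT + IgG replicate 1, 2 or 4) and 0 to 2 for the interaction. For γδTCR blockade 0 to 2 sterol and 0 to 1 fatty acid members were called, and in the other comparisons 0. Sterol and fatty acid medians ranged from -0.22 to 0.04 and -0.35 to -0.08 for anti-IL-38, where the sterol median turned positive without IgG1 control replicate 5, from 0.01 to 0.13 and 0.19 to 0.40 for KO against WT, from -0.27 to -0.08 and -0.38 to -0.17 for γδTCR blockade, from -0.02 to 0.11 and -0.09 to 0.01 for the pooled comparison, from -0.33 to -0.14 and -0.40 to -0.26 for the controls and from -0.36 to -0.08 and -0.69 to -0.46 for the interaction.

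Libraries with the same replicate number correlated at -0.17 to 0.08 in their deviations from the group means, so they share only a number. For the interaction, edgeR, DESeq2, TMM rescaling and the replicate block were not run. Low read counts limit Idi1 and Fads2.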
